A study of Rattus norvegicus with 8 samples.

Results

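Egr1, Egr2, Egr3, Egr4 and Arc are activity genes of the brain, and they were read here by 9 of the 8799 probe sets of a rat expression array, as 5 of the 4736 genes it names. A probe set was taken when the platform's annotation gave it 1 of these 5 gene symbols. Egr1 had 4 probe sets, Egr4 had 2, and Egr2, Egr3 and Arc had 1 each. All 9 were tested, although Egr3 entered through 2 arrays only.

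Each of 8 arrays held total RNA of 1 whole rat brain sample. In the control group of 3 samples the rat breathed isoflurane, a volatile anaesthetic, for 3 min. The 1 hr group (2 samples) and the 2 hr group (3 samples) breathed 2% isoflurane for that time. Every rat was intubated. Perfusion with cold saline is written in the labels of the controls alone, and the way the exposed brains were taken is not stated. The control is therefore a short exposure to the same agent, and no rat without anaesthetic was analysed here. The labels give no strain, age, sex or animal number, so the spread between samples may be partly technical.

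The Egr proteins are zinc finger transcription factors that bind a GC-rich site and are made within minutes when a neuron fires. Arc is an effector: its mRNA travels to active synapses, and its protein takes AMPA receptors off the synaptic surface. Calcium entry through NMDA receptors and calcium channels starts their transcription, through kinases that act on serum response factor and on CREB. Serum response factor binds the CArG box, in which CC and GG flank a run of 6 A or T bases, and CREB binds the cyclic AMP response element (CRE), whose core used here is ACGTCA. The mRNAs are short-lived, and they are widely read as traces of recent neuronal activity.

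The sequences before the gene starts show what Egr1, Egr2 and Egr4 share beyond the family name. RefSeq's promoter table of assembly GRCr8 matched 3 of the 5 genes, and the 250 bases before each start are printed 5′ to 3′ on the gene's strand, with CArG boxes and CRE cores in capitals. The Egr1 stretch is chr18:26736828-26737077 on the + strand, that of Egr2 is chr20:21054442-21054691 on the - strand, and that of Egr4 is chr4:119607818-119608067 on the - strand.
Egr1: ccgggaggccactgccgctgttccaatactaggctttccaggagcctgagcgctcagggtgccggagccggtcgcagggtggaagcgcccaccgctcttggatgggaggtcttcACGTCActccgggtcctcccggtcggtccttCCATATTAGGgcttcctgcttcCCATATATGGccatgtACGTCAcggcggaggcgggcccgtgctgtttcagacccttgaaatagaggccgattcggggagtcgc
Egr2: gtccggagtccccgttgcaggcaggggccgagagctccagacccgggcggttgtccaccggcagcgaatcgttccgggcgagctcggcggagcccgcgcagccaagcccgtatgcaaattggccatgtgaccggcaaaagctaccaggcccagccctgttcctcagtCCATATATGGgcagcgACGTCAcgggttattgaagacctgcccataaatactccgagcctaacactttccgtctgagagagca
Egr4: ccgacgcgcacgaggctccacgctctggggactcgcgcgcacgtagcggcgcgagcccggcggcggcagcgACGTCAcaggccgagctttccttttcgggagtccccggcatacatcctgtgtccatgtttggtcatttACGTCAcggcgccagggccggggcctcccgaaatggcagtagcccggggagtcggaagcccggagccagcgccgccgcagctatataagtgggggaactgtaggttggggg

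Egr1 held 2 CArG boxes, CCATATTAGG from base -105 to -96 and CCATATATGG from base -83 to -74, counted back from the gene start. Egr2 held 1 CArG box, and it was the same 10 letters, CCATATATGG, at the same place, base -83 to -74. Both genes also had an ACGTCA core from base -67 to -62, and Egr1 had a second from -136 to -131. Egr4 had ACGTCA cores from -179 to -174 and from -111 to -106, and no exact CArG box in this window. Both strands were searched. A CArG box was found in 1.5% of the 33469 rat promoter windows of 250 bases and ACGTCA in 6.95%. The full palindrome TGACGTCA (1.59% of windows, a motif that contains ACGTCA), the Egr proteins' own site GCGNGGGCG (4.29%) and TATAAA (12.9%) were in none of these 3 windows. A match describes the letters and shows no binding.

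**Figure D1:**
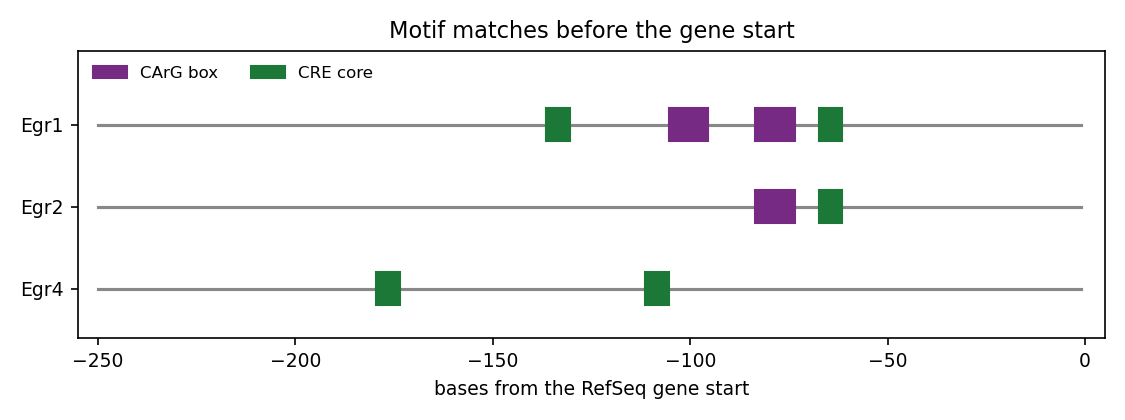
Matches of the CArG box (purple) and of the CRE core (green) in the 250 bases before the RefSeq starts of Egr1, Egr2 and Egr4. The x axis is the distance from the gene start in bases. The CArG box from -83 to -74 and the CRE core from -67 to -62 lie at the same distance in Egr1 and Egr2.

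The values are intensities on a linear scale, comparable between arrays for 1 probe set and not between probe sets. For tests, values under 9.1 were raised to that floor and log2 was taken. The 4 probe sets of Egr1, the inducible factor also known as NGFI-A, Krox-24 and zif268, gave 3 different pictures. M18416_at read 655.5, 746.6 and 158.4 on control replicates 1 to 3, 282 and 391 at 1 hr, and 300.6, 320.7 and 393.1 at 2 hr. Control replicates 1 and 2 lay above every exposed array and control replicate 3 lay below every exposed array.

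The probe set rc_AI176662_s_at repeated that order of arrays for Egr1. It read 360, 258.9 and 99.5 in the controls, 128.4 and 155.1 at 1 hr, and 148.9, 111 and 151.6 at 2 hr. Again the exposed arrays filled the gap between control replicates 1 and 2 above and control replicate 3 below.

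The Egr1 probe set AF023087_s_at did not follow that order at 1 hr or at 2 hr. It read 2943.5, 1773.5 and 1044.8 in the controls, 941 and 1701.8 at 1 hr, and 1664.4, 1485.3 and 2681.6 at 2 hr. Here 1 hr replicate 1 was below control replicate 3, 2 hr replicate 3 was close to the highest control, and the groups overlapped. The Egr1 probe set U75398_s_at read 187, 112 and 99.6 in the controls, 128.9 and 115.8 at 1 hr, and 92.1, 127.3 and 66.3 at 2 hr. On it control replicate 1 alone stood high, and 2 hr replicate 3, high on AF023087_s_at, was the lowest array. The ending _s_at marks probes that can match more than 1 transcript, and M18416_at is the one Egr1 probe set without it.

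Egr2 (U78102_at), the family member Krox-20 that also directs myelination by Schwann cells, read 109.2, 45.9 and 30.2 in the controls, 34.5 and 40.1 at 1 hr, and 30, 22.1 and 46.3 at 2 hr. Control replicate 1 stood above all other arrays by more than their whole range, and the remaining controls lay among the exposed arrays.

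Egr3 (U12428_at), a family member that muscle spindles need to form, was at or under the floor on 6 arrays. It read 6.6, 5.7 and 6.3 in the controls, 29.2 and 8.1 at 1 hr, and 4, 5.6 and 11.1 at 2 hr. The one clear reading was 1 hr replicate 1, the array with the fewest probe sets at the floor, 15.0% against 18.8% to 22.2% on the others. The part of that array property in the reading was not tested. The other array above the floor was 2 hr replicate 3, and no control was.

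Egr4, also known as NGFI-C, was read by 2 probe sets made from expressed sequence tags, and they disagreed. Its rc_AI145177_f_at read 362.3, 289.3 and 283.5 in the controls, 367.4 and 300.5 at 1 hr, and 249, 255.1 and 251.9 at 2 hr. The 2 hr arrays were nearly alike and lay below all others. Its rc_AI144873_at read 43.7, 41.2 and 74.4 in the controls, 72.3 and 76.9 at 1 hr, and 65.1, 43.3 and 27.1 at 2 hr. On it control replicate 3 was the highest control, the reverse of Egr1, and the 2 hr arrays overlapped the controls. The ending _f_at marks probes that can match several members of a sequence family, so that reading may not be Egr4 alone.

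Arc (U19866_at), the synaptic effector, had the widest range of the 9 on the log2 scale. It read 1693.9, 1099.9 and 215.4 in the controls, 406.7 and 613.5 at 1 hr, and 511, 545.5 and 297.7 at 2 hr. As on the first 2 Egr1 probe sets, all 5 exposed arrays lay between control replicates 1 and 2 above and control replicate 3 below.

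**Figure D2:**
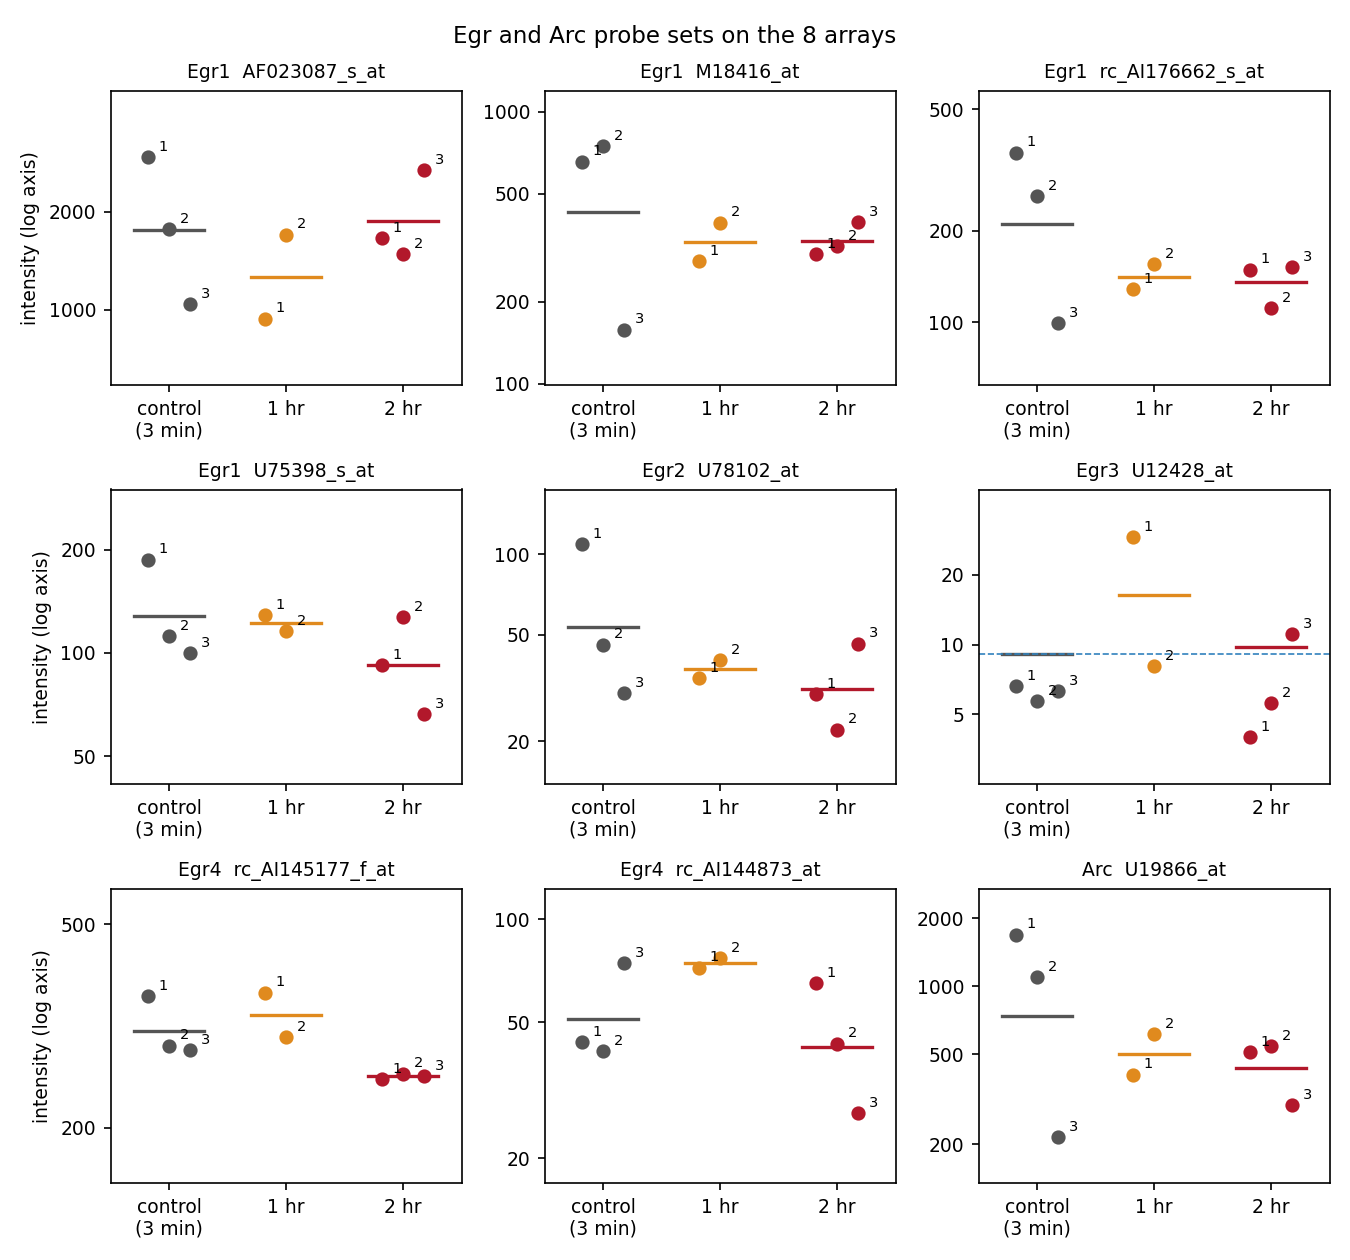
Intensity (log axis) of the 9 probe sets on the 8 arrays, by exposure. Points are arrays with their replicate numbers, bars are group means of the floored log2 values, and the dashed line is the floor of 9.1. On M18416_at, rc_AI176662_s_at and the Arc probe set, control replicates 1 and 2 lie above and control replicate 3 below all exposed arrays.

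The comparison of 2 hr with control asked whether the activity genes differed after the longer exposure. Averages of intensity here and below are on the linear scale. Each log2 change compares means of floored log2 values, and so is not the ratio of those averages. Arc averaged 451 ± 134 at 2 hr and 1003 ± 744 in the controls (SD, n = 3 each), with a log2 change of -0.76 (SE 0.66, 95% interval -2.24 to 0.72). Egr2 averaged 32.8 ± 12.3 at 2 hr and 61.8 ± 41.8 in the controls, a log2 change of -0.77 (SE 0.54, interval -1.98 to 0.44). The groups overlapped for both genes, and the control mean was carried by its highest arrays.

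For Egr1 the log2 change at 2 hr was -0.63 (SE 0.44, interval -1.61 to 0.35) on rc_AI176662_s_at, -0.47 (SE 0.35) on U75398_s_at, -0.34 (SE 0.52) on M18416_at and 0.09 (SE 0.47) on AF023087_s_at. The probe sets of 1 gene therefore differed in sign. For Egr4 the changes were -0.30 (SE 0.23, interval -0.82 to 0.22) on rc_AI145177_f_at and -0.27 (SE 0.44) on rc_AI144873_at. Egr3 read 0.096 (SE 0.39) and stood on 1 array at 2 hr. Its controls were all raised to the floor, so its change against control could not be negative at either time.

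With limma's moderated test across all 7770 probe sets, 0 of the 9 passed at an adjusted p of 0.05, and 0 of all 7770 did, a background of 0%. The adjusted p of the members was 1 throughout, none had an unadjusted p under 0.05, and 139 of all probe sets (1.79%) had. Of the 9 changes 7 were below 0, as were 47.7% of all probe sets, and 5 of those 7 are probe sets of Egr1 and Egr4. The median over the 9 was -0.34, against 0.018 over all probe sets. The groups did not overlap for 1 of the 9, the Egr4 probe set rc_AI145177_f_at, whose 2 hr arrays were the lower ones, against 2.55% of all probe sets with that order, and 0 of the 9 had 2 hr arrays wholly above the controls, against 2.9% of all. In a whole brain, less mRNA per cell and fewer cells of a type cannot be told apart. The 95% interval of Arc spans a level at 2 hr of 0.212 to 1.65 times that of the controls.

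The comparison of 1 hr with control asked the same of the shorter exposure, and it shares its controls with the one above. Arc averaged 510 ± 146 at 1 hr (n = 2) and 1003 ± 744 in the controls (n = 3), a log2 change of -0.56 (SE 0.74, interval -2.22 to 1.09). Egr2 averaged 37.3 ± 3.96 at 1 hr and 61.8 ± 41.8 in the controls, a log2 change of -0.52 (SE 0.60). Egr1 read -0.57 (SE 0.49) on rc_AI176662_s_at, -0.48 (SE 0.53) on AF023087_s_at, -0.36 (SE 0.58) on M18416_at and -0.065 (SE 0.40) on U75398_s_at. All 4 of its probe sets were thus below 0 here.

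Egr4 and Egr3 lay on the other side of 0 at 1 hr. The Egr4 change was 0.54 (SE 0.50, interval -0.57 to 1.65) on rc_AI144873_at and 0.10 (SE 0.26) on rc_AI145177_f_at. Egr3 read 0.84 (SE 0.43, interval -0.12 to 1.81), all of it from 1 hr replicate 1, since without that array the change was 0. With every control at the floor, the Egr3 change could not fall below 0, so its direction carries no information. With limma 0 of the 9 passed (adjusted p = 1 for each) and 0 of all 7770, a background of 0%. None of the 9 had an unadjusted p under 0.05, as 208 of all probe sets had (2.68%). Of the 9 changes 6 were below 0, against 44.2% of all probe sets, with a median of -0.36 against 0.054. The groups overlapped for all 9, where 5.11% of all probe sets had 1 hr arrays wholly below and 7.54% wholly above the controls.

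Any exposure, the 1 hr and 2 hr group means averaged with equal weight, was also compared with control, with smaller errors and no call. The log2 change against control was -0.66 (SE 0.60) for Arc, -0.64 (SE 0.49) for Egr2 and -0.60 (SE 0.39) for Egr1 on rc_AI176662_s_at. It was -0.35 on M18416_at, -0.27 on U75398_s_at and -0.19 on AF023087_s_at. Egr4 read -0.098 on rc_AI145177_f_at and 0.14 on rc_AI144873_at, and Egr3, with every control at the floor, read 0.47. Limma's adjusted p was 0.999 for each of the 9, 0 of all 7770 passed (0%), and 0 of the 9 against 172 of all (2.21%) had an unadjusted p under 0.05. Of the 9 changes 7 were below 0, against 44.8% of all probe sets. Exposed arrays lay wholly below the controls for 0 of the 9 (1% of all probe sets) and wholly above for 0 (0.927% of all).

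Between 2 hr and 1 hr, Egr4 was the gene whose arrays did not overlap on either probe set. The probe set rc_AI144873_at read 45.2 ± 19.1 at 2 hr and 74.6 ± 3.25 at 1 hr, a log2 change of -0.81 (SE 0.50, interval -1.92 to 0.30), and rc_AI145177_f_at read 252 ± 3.05 at 2 hr and 334 ± 47.3 at 1 hr, a change of -0.40 (SE 0.26, interval -0.98 to 0.18). This is 2 of the 9, where 7.82% of all probe sets had 2 hr arrays wholly below the 1 hr arrays, and 0 of the 9 were wholly above, as 5.98% of all were. Arc read -0.20 (SE 0.74), Egr2 -0.25 (SE 0.60) and Egr3 -0.75 (SE 0.43). Egr1 read 0.57 (SE 0.53) on AF023087_s_at, 0.017 on M18416_at, -0.055 on rc_AI176662_s_at and -0.41 on U75398_s_at. In limma 0 of the 9 (adjusted p = 1 for each) and 0 of all 7770 passed (0%), and 0 of the 9 against 215 of all (2.77%) had an unadjusted p under 0.05. Of the 9 changes 7 were below 0, against 52.6% of all.

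**Figure D3:**
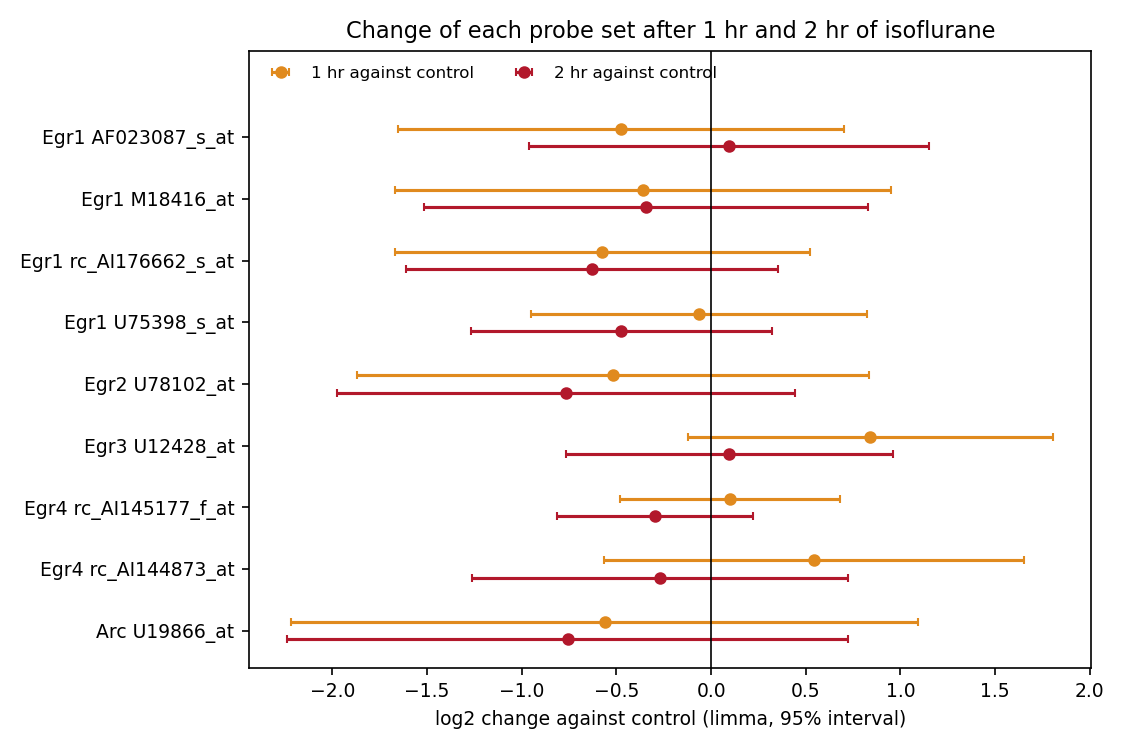
Log2 change of each probe set against control after 1 hr (orange) and 2 hr (red), with limma's 95% intervals (n = 2, 3 and 3 arrays at 1 hr, 2 hr and control). Every interval crosses 0. The Egr2 and Arc points lie left of 0 at both times, and the Egr3 point at 1 hr lies farthest right, at 0.84. Egr3 was at the floor on every control, so its points could not lie left of 0.

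The SD of the log2 values was lower at 2 hr than in the controls on 7 of the 9 probe sets, all but Egr3 and Egr4 rc_AI144873_at. The share of all probe sets with that order was not counted. On Egr1 U75398_s_at the 2 were nearly equal, 0.47 at 2 hr and 0.48 in the controls. The SD of log2 Arc was 0.48 among the 3 arrays of 2 hr, at the 60.8th percentile of the probe sets tested, and 1.57 among the 3 controls, at the 98.0th percentile. The SD of Egr1 on M18416_at was 0.20 at 2 hr (21.3rd percentile) and 1.24 in the controls (94.3rd percentile). Egr1 on rc_AI176662_s_at gave 0.25 at 2 hr and 0.96 in the controls, and Egr2 gave 0.54 at 2 hr and 0.95 in the controls. Egr1 on AF023087_s_at gave 0.45 at 2 hr and 0.75 in the controls, and Egr4 on rc_AI145177_f_at gave 0.017 at 2 hr and 0.20 in the controls. The medians over all probe sets were 0.39 at 2 hr and 0.46 in the controls. Over all probe sets tested, control replicate 3 correlated at 0.88 with each other control, and those correlated at 0.96 with each other. A test of the difference in spread was not run.

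Control replicate 3 stood apart in other ways. The neuron markers averaged a log2 of 6.58 on it and 7.48 to 8.23 on the other 7 arrays, with 5 of the 10 measured markers lowest there, against 3 of the 9 Egr and Arc probe sets and 18.4% of all probe sets. Their summed intensity ran from 3073 to 5469 at 2 hr, from 3506 to 4277 at 1 hr and from 1920 to 5316 in the controls, and none was at the floor on any array. The actin ratio of the 3′ to the 5′ control probe set, a sign of RNA quality, was 2.89 on it and 1.04 to 1.68 elsewhere. It was also 1 of the 3 arrays, with 1 hr replicate 1 and 2 hr replicate 3, whose highest intensity was above 20000. Control replicates 1 and 2 and 2 hr replicate 1 had a low 5S ribosomal RNA reading, 12.9 to 23.7 against 70.4 to 141.7 elsewhere. The part of these properties in the Egr and Arc readings was not tested. Markers of astrocytes (8 of 9 measured) and oligodendrocytes (6 of 8) were also present, as a whole brain holds. Their mean log2 was lowest on control replicate 3 too, at 8.22 for astrocytes against 8.54 to 9.06 on the other arrays, and at 9.53 for oligodendrocytes against 9.58 to 10.1. Markers of endothelial and mural cells (5.75), of meninges (6.81) and of choroid plexus (6.11) were also lowest there, and those of blood (5.49) were highest.

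Leaving out control replicate 3 or control replicate 1 moved most of the changes, in opposite directions. At 2 hr without control replicate 3 Arc read -1.65 (SE 0.36), Egr1 -1.17 (SE 0.27) on rc_AI176662_s_at and -1.06 (SE 0.25) on M18416_at, and Egr2 -1.18 (SE 0.54). Egr1 turned sign on AF023087_s_at, to -0.28, and read -0.65 on U75398_s_at, and Egr4 rc_AI144873_at came to lie at about 0. Limma's adjusted test passed none of these, with adjusted p of 0.913 for Arc. At 1 hr without it Arc read -1.45 (SE 0.39, adjusted p = 0.894 in limma) and Egr2 -0.93. Egr1 then read -1.11 on rc_AI176662_s_at, -1.08 on M18416_at, -0.85 on AF023087_s_at and -0.24 on U75398_s_at. Without control replicate 1 instead, Arc read -0.16 at 2 hr and 0.037 at 1 hr, and Egr2 -0.25 at 2 hr and -0.0014 at 1 hr. Egr1 then read -0.24 on rc_AI176662_s_at, -0.20 on U75398_s_at, -0.034 on M18416_at and 0.46 on AF023087_s_at at 2 hr. Without control replicate 2, M18416_at read 0.060 at 2 hr. The size of the Arc, Egr1 and Egr2 differences thus depended on which controls were kept.

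Within the classes of arrays the direction at 2 hr was not constant for Arc and Egr2. The same held for Egr1 on M18416_at, rc_AI176662_s_at and AF023087_s_at, and for Egr4 on rc_AI144873_at. In both splits control replicate 3 was the only control of its class. A change of sign between classes therefore cannot be told apart from that sample's own reading. Among the 3 arrays of high top intensity, Arc was higher at 2 hr than in the control by 0.47 (1 against 1), and among the other arrays it was lower, at -1.37 (2 against 2). Egr1 on M18416_at gave 1.31 and -1.17, and Egr2 0.62 and -1.46, in the same order. On rc_AI176662_s_at Egr1 gave 0.61 and -1.25, and on AF023087_s_at 1.36 and -0.54. Egr4 on rc_AI144873_at gave -1.46 and 0.32. Egr1 on U75398_s_at gave -0.59 and -0.42, and Egr4 on rc_AI145177_f_at gave -0.17 and -0.36, so these kept their sign. Among the arrays with a low 5S reading Arc gave -1.42 (1 array of 2 hr against 2 controls), and among the rest 0.90 (2 arrays against control replicate 3). With the 5S class as a block the Arc change was -0.26 at 2 hr and 0.44 at 1 hr, and with the class of high top intensity it was -0.76 and -0.32. No fit with either block gave a call among the 9.

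**Figure D4:**
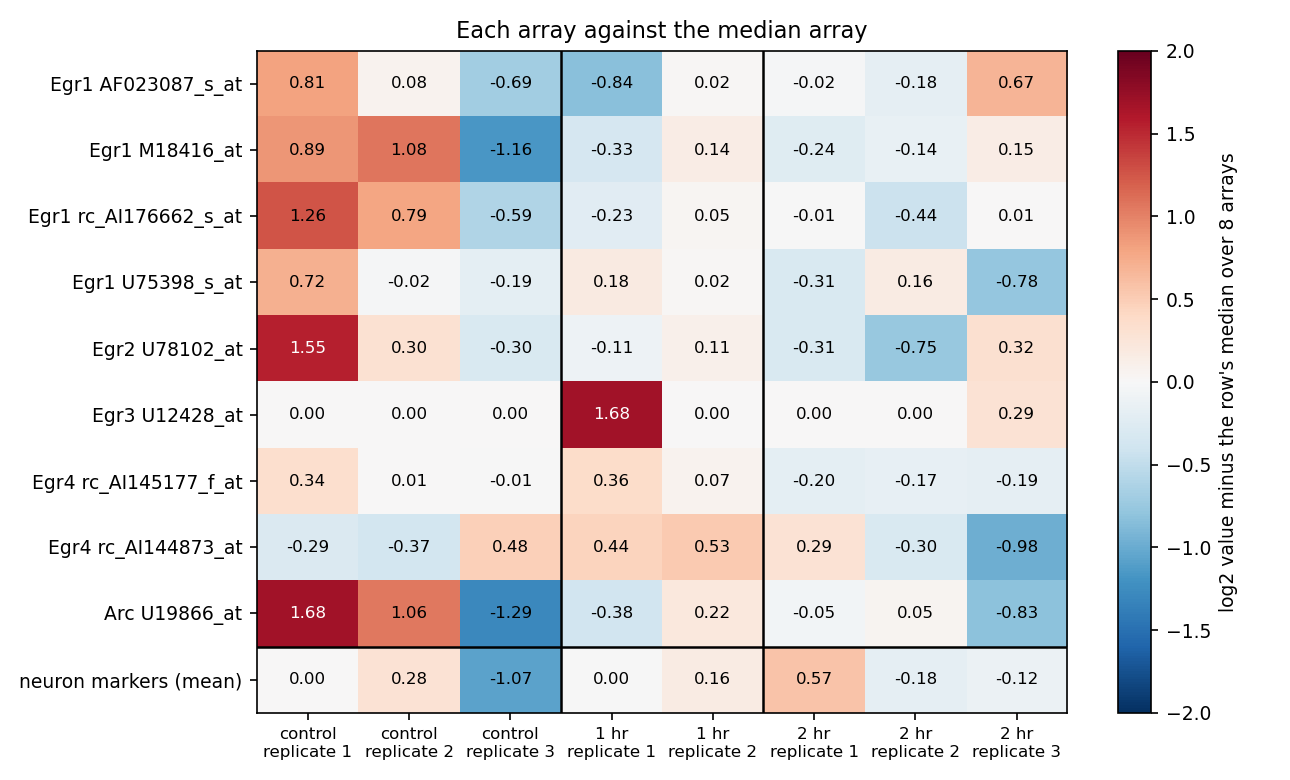
Log2 value of each probe set on each array minus that probe set's median over the 8 arrays, with the mean of 10 neuron markers in the lowest row. Control replicate 3 is at -1.29 for Arc, -1.16 for Egr1 M18416_at and -1.07 for the neuron markers. Control replicate 1 is at 1.68 for Arc and 0.00376 for the neuron markers.

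**Figure D5:**
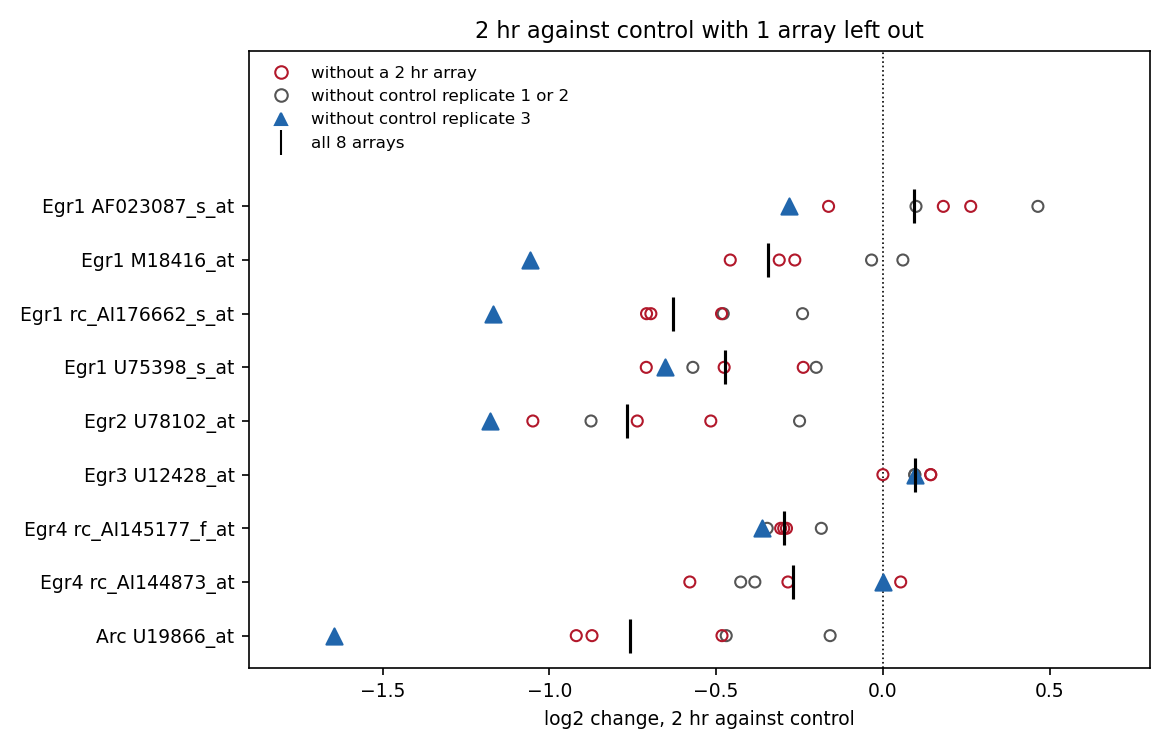
Log2 change of 2 hr against control with all 8 arrays (bar) and with 1 array of either group left out (symbols). Without control replicate 3 (triangles) Arc moves to -1.65 and Egr1 rc_AI176662_s_at to -1.17, whereas Egr4 rc_AI145177_f_at stays between -0.36 and -0.18 whichever array is left out.

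Likeness between members is given as Pearson correlation of log2 values over the 8 arrays, which share hybridisation and scaling, and as a description only. Arc followed Egr1 at r = 0.89 on rc_AI176662_s_at (rho = 0.79) and r = 0.87 on M18416_at (rho = 0.74). Without the 2 arrays farthest from the Egr1 median these were 0.48 and 0.78. Egr2 followed Egr1 at r = 0.89 on rc_AI176662_s_at, and at 0.67 without such arrays. With Arc it gave r = 0.66 (rho = 0.38), and 0.45 without the 2 arrays farthest from the Egr2 median. The 2 Egr1 probe sets that shared the control pattern correlated at 0.90, whereas AF023087_s_at and U75398_s_at, both annotated as Egr1, correlated at 0.0033. The Egr4 probe sets differed: rc_AI145177_f_at gave 0.74 with Egr1 U75398_s_at, 0.43 with rc_AI176662_s_at and 0.42 with Arc, whereas rc_AI144873_at gave -0.54 with M18416_at and -0.21 with Arc. They correlated with each other at 0.31.

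The genes outside the family whose pattern over the arrays was most like each member were ranked by the same r. The closest to Egr1 on AF023087_s_at, its probe set of highest mean, was Dusp1 (S74351_s_at), a phosphatase that switches off MAP kinases, at r = 0.94 and 0.89 without the 2 arrays farthest from the Egr1 median. Dusp1 read 289.4, 127 and 47.9 in the controls, 39.8 and 180.9 at 1 hr, and 71.3, 116.8 and 298.4 at 2 hr, with the same high 2 hr replicate 3 as that Egr1 probe set. Cyp2j3, Sipa1l1 and Sart1 followed at 0.94 each. For Egr2 the 4 closest were Por (0.95), Junb (0.94), Gip (0.93) and Nr4a3 (0.91), of which Junb and Nr4a3 are transcription factors induced by activity. Junb read 363.5, 152.1 and 125.3 in the controls, 137.6 and 160.3 at 1 hr, and 115.2, 113.1 and 134.8 at 2 hr. Without the 2 arrays farthest from the Egr2 median these 4 gave 0.72, 0.72, 0.85 and 0.71.

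For Arc the closest were Map3k12 (0.94), the neuronal kinase DLK, Cckbr (0.94), a cholecystokinin receptor, Atp6v0a1 (0.93), a proton pump subunit, and Nlgn3 (0.93), a synaptic adhesion protein. Atp6v0a1 read 579.9, 528 and 110.8 in the controls, 297.9 and 301.7 at 1 hr, and 303.3, 279.8 and 237 at 2 hr, and so repeated Arc's order of high and low controls. For Egr4 the closest to rc_AI145177_f_at were Foxd1 (0.94), Agxt (0.94), Rxra (0.93) and Cyp27a1 (0.93). Without the 2 arrays farthest from the Egr4 median these gave 0.71, 0.77, 0.90 and 0.63. Foxd1 was at or under the floor on 2 arrays. For Egr3 the closest, Smarcb1, P2rx2, Slc12a1 and Pax6, had an r above 0.99 that rested on the 2 arrays above the floor, and no r could be had without them.

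The other genes of the pathway were grouped in 6 lists, read by 1 probe set a gene, the brightest. None of their genes passed limma's test in any comparison, in either direction (0 of all 7770, 0%). Of 24 activity-regulated transcription factors 18 were measured, with 9 above and 9 below 0 at 2 hr, a median of 0.0019 against 0.018 for all probe sets, and 7 above and 11 below at 1 hr, with a median of -0.13 against 0.054. Fos, the partner of Jun in AP-1, read 357.5, 309.1 and 422.9 in the controls, 221.5 and 271.4 at 1 hr, and 179.7, 233.3 and 214.5 at 2 hr. All its exposed arrays lay below all controls, an order that 1% of all probe sets had. Fos was named for being among the 2 genes of smallest limma p in this list. Unlike for Arc and Egr1, control replicate 3 was the highest array for Fos. The log2 change of Fos was -0.79 (SE 0.25) at 2 hr and -0.55 (SE 0.28) at 1 hr. Cebpb read 1.35 (SE 0.56) at 2 hr, with control replicate 3 at the floor, and Klf6 read -1.42 (SE 0.63) at 1 hr.

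Of 34 activity-regulated effector genes 23 were measured, with 11 above and 12 below 0 at 2 hr (median -0.0017) and 9 above and 14 below at 1 hr (median -0.16). Ccn1, a matrix protein, read -0.84 (SE 0.30) and Dusp6, a phosphatase of ERK, -0.91 (SE 0.36) at 2 hr. Dclk1, a microtubule-binding kinase, read -0.71 (SE 0.31) and Dusp5, another phosphatase of ERK, -0.68 (SE 0.35) at 1 hr. Of 8 Egr cofactors and inhibitors 3 were measured, all below 0 at 2 hr (median -0.43), and 2 above and 1 below at 1 hr (median 0.097). Sp1, which competes for GC-rich sites, read -0.54 (SE 0.45) at 2 hr and 0.60 (SE 0.50) at 1 hr, and Nab1, a corepressor bound by Egr1 and Egr2, -0.43 (SE 0.46) and -0.13 (SE 0.52).

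Of 39 kinases, receptors and factors upstream of Egr and Arc 19 were measured, with 9 above and 10 below 0 at 2 hr (median -0.013) and 12 above and 7 below at 1 hr (median 0.23). Camk2a read 0.77 (SE 0.50) and Camkk1, a kinase that activates CaM kinases, 0.43 (SE 0.47) at 2 hr. Grin2a, an NMDA receptor subunit, read 1.11 (SE 0.54) and Prkcb, a protein kinase C, -0.93 (SE 0.45) at 1 hr. Of 28 genes described as Egr targets 24 were measured, with 16 above and 8 below 0 at 2 hr (median 0.19) and 18 above and 6 below at 1 hr (median 0.21). Of all probe sets 47.7% were below 0 at 2 hr and 44.2% at 1 hr. The mean log2 of these targets was lowest on control replicate 3, at 6.02 against 6.19 to 6.54 on the other arrays. Ptpn1, a tyrosine phosphatase, read 0.59 (SE 0.31) and Syn2, a synaptic vesicle protein, 0.38 (SE 0.23) at 2 hr, and Cd44 read -1.15 (SE 0.45) and Th, which makes dopamine's precursor, 0.61 (SE 0.39) at 1 hr.

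Of 24 genes for partners of the Arc protein 17 were measured, with 10 above and 7 below 0 at 2 hr (median 0.15) and 9 above and 8 below at 1 hr (median 0.018). Their mean log2 was also lowest on control replicate 3, at 7.25 against 7.64 to 8.055 on the other arrays. Dlg4, the scaffold PSD-95, read 0.50 (SE 0.25) at 2 hr and 0.49 (SE 0.28) at 1 hr. Dbn1, an actin-binding protein of spines, read 0.43 (SE 0.32) at 2 hr. Dnm1, the dynamin of synaptic endocytosis, read 0.87 (SE 0.90) at 1 hr, with 358.9 on control replicate 3 against 1921.2 to 3825 on the other arrays. Some genes stand in 2 lists, and these medians carry no test.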

How the data were processed

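The deposited values are linear intensities, 8799 probe sets on each of 8 arrays. No source used here says how the authors summarised or scaled these intensities. The arrays' 2% trimmed means lay between 150.2 and 150.3, so values were used as deposited. The 59 control probe sets were left out. Values were floored at the 20th percentile, an intensity of 9.1, and log2 was taken. Probe sets above the floor on at least 2 arrays were kept (7770; 970 removed). Symbols came from the platform's annotation, updated by gene number through RefSeq GRCr8. Promoter sequences are RefSeq's. Comparisons used limma 3.58.1 in R 4.3.3 (moderated by eBayes, with a trend on mean log2 value, 1 mean per group over all 8 arrays, two-sided, Benjamini-Hochberg over 7770 probe sets, threshold 0.05). In simulated data for 2 hr against control (7770 probe sets, 20 sets) a true log2 change of 2 was called in 58.9% of cases and one of 1 in 4.9%. The simulated noise was normal and independent for each probe set, with no array-wide effect and no floor. The rates may therefore not hold for these arrays or these genes. All probe sets of the 5 genes are named. For each, the 4 most correlated other genes are named, and from each list the 2 genes of smallest p per time. The members and lists were chosen with earlier results of these data known. Deviations of same-numbered samples from their group means correlated at r from -0.33 to 0.29. With so few arrays, and mirrored deviations in the 1 hr pair (r = -1), this cannot decide whether the numbers mark pairs. The labels do not say, and the main fit did not use the numbers as pairs. Normalization, floor, filter, trend, blocks and left-out arrays were varied. The number of arrays limits precision.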

Additional observations from a re-analysis of the deposited data

How the results depend on the processing

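Under 19 to 22 alternative settings for each change, and with the mean over probe sets for Egr1 and Egr4, no probe set of the 5 genes passed limma's threshold (783 values, lowest adjusted p 0.0838, for Egr3 at 1 hr without 1 hr replicate 2). Of 36 changes 21 turned sign at least once, in 49 values, and the cause was not tested except where named. Over all probe sets, 0 were called under each setting except without the filter on low values, when 4 were called for 1 hr against control and 4 for 2 hr against 1 hr, none of the 5 genes. Those 4 were at or under the floor on 5 or 6 arrays.

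With 1 array left out, the 2 hr change against control ran from -0.28 to 0.46 for Egr1 AF023087_s_at, -1.06 to 0.060 for M18416_at and -0.58 to 0.053 for Egr4 rc_AI144873_at. At 1 hr against control it ran from -1.08 to 0.043 for M18416_at, -0.24 to 0.21 for U75398_s_at, -0.044 to 0.25 for Egr4 rc_AI145177_f_at and -1.45 to 0.037 for Arc. For any exposure it ran from -0.57 to 0.18 for AF023087_s_at, -1.07 to 0.052 for M18416_at, -0.45 to 0.0050 for U75398_s_at, -0.17 to 0.015 for rc_AI145177_f_at and -0.020 to 0.41 for rc_AI144873_at. For 2 hr against 1 hr it ran from -0.22 to 0.25 for M18416_at, -0.19 to 0.090 for rc_AI176662_s_at, -0.53 to 0.0029 for Egr2, -1.59 to 0.096 for Egr3 and -0.49 to 0.10 for Arc. A lone 1 hr array was assumed to vary like the other groups.

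Without the 3 arrays of high top intensity the change at 2 hr was -0.54 for AF023087_s_at and 0.32 for rc_AI144873_at, at 1 hr -0.11 for rc_AI145177_f_at, and between 2 hr and 1 hr -0.11 for AF023087_s_at and -0.33 for M18416_at. With the 5S class as a block it was 0.27 for M18416_at, 0.031 for rc_AI176662_s_at, 0.12 for U75398_s_at and 0.44 for Arc at 1 hr, 0.026 for AF023087_s_at, 0.12 for M18416_at and 0.091 for Arc for any exposure, and -0.30 for M18416_at between 2 hr and 1 hr. With the top intensity class as a block it was 0.00389 for U75398_s_at at 1 hr and -0.11 for M18416_at between 2 hr and 1 hr. Centring on neuron markers, added after seeing the data, moved the median of all probe sets to -0.33 at 2 hr and gave -0.26 for AF023087_s_at and -0.26 for Egr3 at 2 hr, -0.24 for rc_AI145177_f_at at 1 hr and -0.21 for rc_AI144873_at for any exposure. Median centring gave -0.014 for rc_AI145177_f_at at 1 hr, and quantile normalization -0.054 for M18416_at between 2 hr and 1 hr. The mean over probe sets was -0.34 for Egr1 at 2 hr and 0.019 for Egr4 for any exposure.

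With the replicate number as a block, 2 hr against 1 hr gave 0.39 for Arc and 0.17 for rc_AI176662_s_at, 1 hr against control gave -1.14 (SE 0.48) for Arc and -0.66 for M18416_at, and 2 hr against control gave -0.76 for Arc. The labels do not say whether the numbers pair the samples, and the block made no call. In the simulation of 2 hr against control, with independent noise for each probe set, 4.9% of log2 changes of 1 were called. Egr3 was under the floor of 9.1 on every control, so its change against control could not be negative in the main fit.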
